A study of Arabidopsis thaliana with 15 samples.

Results

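Suberin is a wall polymer of fatty acids, glycerol and phenolics that is laid down as lamellae in the endodermis of the root, where it limits the passage of water, ions and gases. Its aliphatic part starts from plastid fatty acids that the endoplasmic reticulum elongase lengthens, and 3-ketoacyl-CoA synthases (KCS) carry out the first and chain-length setting step of each round. Cytochrome P450 enzymes of the CYP86 family oxidise the far end of the chain, and fatty acyl-CoA reductases (FAR) make primary alcohols. Glycerol-3-phosphate acyltransferases (GPAT) join the chains to glycerol, and the acyltransferase ASFT adds ferulate. In Arabidopsis roots this set is known to respond to hormones, wounding and nutrient supply.

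The genes described are 10 enzymes of this path, chosen by name and locus code: KCS1 (AT1G01120), KCS2 (AT1G04220), KCS20 (AT5G43760), GPAT5 (AT3G11430), CYP86A1 (AT5G58860), CYP86B1 (AT5G23190), ASFT (AT5G41040), FAR1 (AT5G22500), FAR4 (AT3G44540) and FAR5 (AT3G44550). Of the 10 codes, 7 stand among the 14532 genes of the deposited count table, and 6 of these, all but KCS20, had counts high enough to be tested among 9986 genes. CYP86B1, ASFT and FAR1 are not in the table used here and were not analysed here.

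The RNA came from roots of wild-type Arabidopsis thaliana seedlings of ecotype Columbia-0, 7 days old, with 30 to 50 seedlings pooled in each biological replicate and roots and shoots separated after the treatment. The 5 groups of 3 replicates, a to c, were 5 mM H2O2 with 10 µM RB for 2 h, and a time series of water and of 5 mM H2O2 for 1 h, 2 h and 3 h. The titles of the water libraries give time 0 and their treatment field gives 1 h, so only the 1 h comparison is matched in its stated time. RB is spelled MRB in the treatment field, and the title of the series names Rose Bengal, which as a dye sensitises the formation of singlet oxygen under light. Roots given RB alone were not analysed here, so a value with H2O2 and RB cannot be split into a part of RB and a part of both together.

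Library totals ran from 689372 to 6231140 counts, and 1 count was worth 0.157 to 1.58 CPM (counts per 1000000 counts of the library, with library sizes scaled by TMM factors). A count of 0 therefore allows a level of up to 0.472 to 4.74 CPM by the limit of 3 counts, a limit that covers counting error only. Summed levels of 9 endodermis markers were 837 to 977 CPM at 1 h of H2O2, 1010 to 1412 CPM at 2 h, 774 to 1263 CPM at 3 h and 880 to 1241 CPM with H2O2 and RB, against 888 to 1035 CPM in water. These sums overlapped between every group and water, so RNA of the endodermis, the tissue that makes suberin, was present in all groups. Of the 6 endodermis markers tested by edgeR, 1 rose at 1 h, 1 at 2 h and 1 at 3 h of H2O2 against water, the comparisons at 2 h and 3 h being among those in which KCS1 rose. With H2O2 and RB 0 of the 6 were called against water, and 0 had an unadjusted p under 0.05. Markers of root hairs summed to 14.2 to 25.5 CPM at 1 h of H2O2, 6.83 to 8.82 CPM at 2 h, 3.47 to 8.96 CPM at 3 h and 1.57 to 19.7 CPM with H2O2 and RB, against 119 to 208 CPM in water, and all 3 tested fell in each of the 4 comparisons with water. In whole roots, fewer cells of a type and less RNA per cell cannot be told apart. The part that the root hair or endodermis RNA has in the rise of KCS1 was not tested.

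Across the 6 tested genes, 2 changed by edgeR's quasi-likelihood test with Benjamini-Hochberg adjustment over 9986 genes (adjusted p under 0.05), and both are condensing enzymes of the elongase. KCS1 rose after 2 h and 3 h of H2O2 and with H2O2 and RB, and KCS2 rose with H2O2 and RB. No tested gene fell. The acyltransferase GPAT5, the hydroxylase CYP86A1 and the reductases FAR4 and FAR5 did not pass the test in any of the 10 comparisons between groups.

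**Figure D1:**
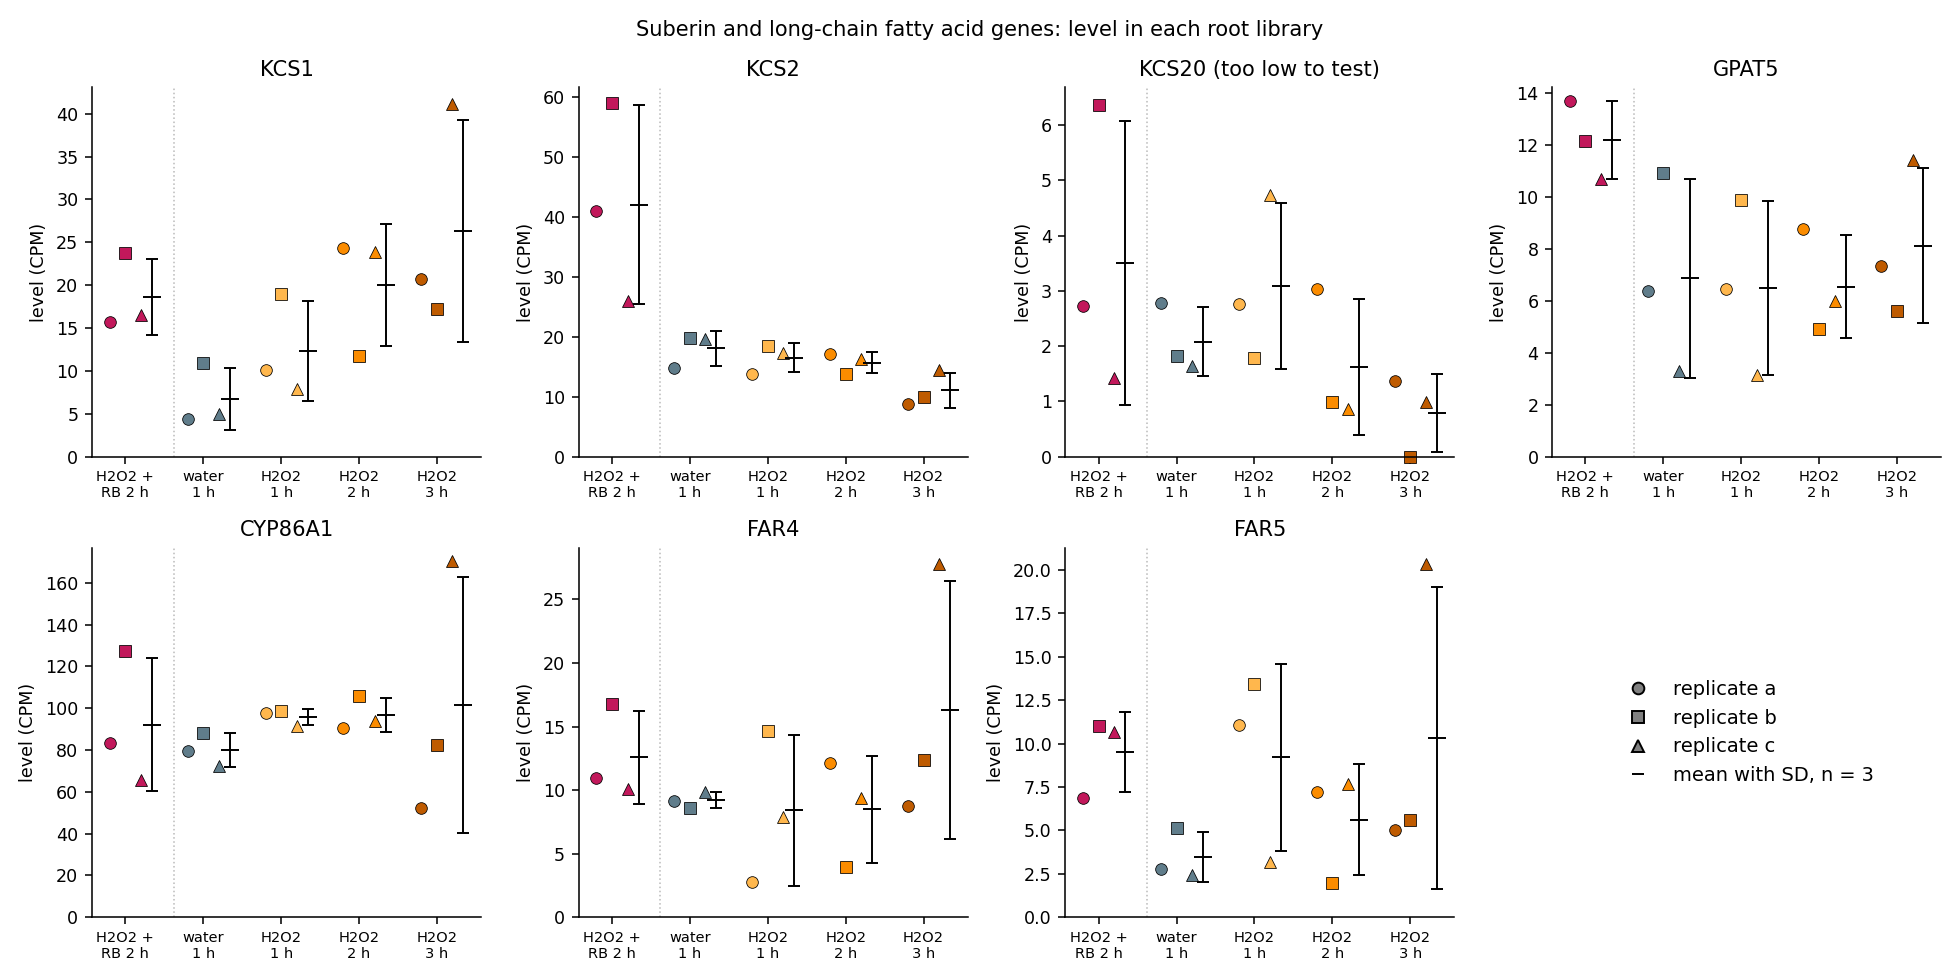
Level of each of the 7 listed genes in CPM (vertical axes, from 0) in every library, with H2O2 and RB at the left and the time series from water to 3 h of H2O2 at the right. Symbols are replicates a to c, and black bars are means with SD (n = 3). KCS2 stands at 25.9 to 59.1 CPM with H2O2 and RB, above all 12 other libraries.

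The counts of changed genes are read against all genes tested. At 1 h of H2O2 against water 0 of 6 were called, beside 6.55% of all tested genes called higher and 3.04% called lower. At 2 h 1 of 6 rose, beside 9.21% higher and 4.73% lower. At 3 h 1 of 6 rose, beside 16.2% higher and 14.4% lower. With H2O2 and RB against water 2 of 6 rose, beside 11.6% higher and 9.62% lower, and against H2O2 alone at 2 h 1 of 6 rose, beside 0.741% higher and 1.69% lower. Between 3 h and 1 h of H2O2 0 of 6 were called, beside 6.91% higher and 6.94% lower. A single call among 6 genes is 16.7% of them, which at 3 h is near the 16.2% of all genes. At an unadjusted p under 0.05, 1 of the 6 passed at 1 h against water, and 1 of the 6 passed for 3 h against 1 h, beside 2204 and 2805 of all 9986 genes. Against water 1 of the 6 passed at 2 h, 3 at 3 h and 3 with H2O2 and RB, beside 2668, 4075 and 3246. With H2O2 and RB against H2O2 alone at 2 h it was 1 of the 6, beside 1244. Groups whose libraries do not overlap were common among all tested genes. All 3 libraries lay above all 3 water libraries for 14.2% of genes at 1 h, 16.3% at 2 h and 21.4% at 3 h. With H2O2 and RB this held for 20.1% against water and 8.95% against H2O2 alone at 2 h. Against 1 h and 3 h of H2O2 the shares with H2O2 and RB were 11.7% and 17.5%. The share of genes for which these 3 libraries lay above all libraries of the other groups was not computed. At 3 h all 3 libraries lay below water for 21.9% of genes.

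The median log2 fold change of the 6 tested genes against water was 0.17 at 1 h, 0.12 at 2 h, 0.56 at 3 h and 0.94 with H2O2 and RB. Over all tested genes these medians were 0.01, -0.03, -0.07 and -0.01. Against H2O2 alone at 2 h, the median with H2O2 and RB was 0.58 for the 6 genes and 0.02 for all genes.

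KCS1 makes the condensing enzyme with the broadest range of chain lengths, active in wax and suberin precursors of shoots and roots. With H2O2 and RB its libraries had 15.7, 23.7 and 16.5 CPM. Along the time series it had 4.38, 10.9 and 4.92 CPM in water, 10.1, 19.0 and 7.89 CPM at 1 h of H2O2, 24.3, 11.8 and 23.9 CPM at 2 h, and 20.7, 17.2 and 41.2 CPM at 3 h. All libraries of the 2 h, the 3 h and the H2O2 and RB groups lay above all 3 water libraries, while the 1 h libraries overlapped them. These levels rest on 5 to 105 counts per library, and on only 6, 11 and 66 counts in the water libraries.

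The log2 fold change of KCS1 against water was 1.47 ± 0.45 at 2 h (SE, adjusted p = 0.0320) and 1.82 ± 0.43 at 3 h (adjusted p = 0.00360). At 1 h it was 0.90 ± 0.45, which did not pass the test (adjusted p = 0.255), with an interval of -0.05 to 1.85. The means in the order of time were 6.74 ± 3.62 CPM in water, 12.3 ± 5.85 CPM at 1 h, 20.0 ± 7.14 CPM at 2 h and 26.3 ± 13.0 CPM at 3 h (SD, n = 3 each), and no step between neighbours in this order passed the test (adjusted p = 0.255, 0.975 and 0.779 by edgeR). The last step, 0.35 on the log2 scale, was -0.11 without H2O2 3 h replicate c and -0.38 after thinning all libraries to equal depth, so the order of 3 h and 2 h turns.

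Between 3 h and 1 h of H2O2 the difference of KCS1 was 0.92 ± 0.43 (adjusted p = 0.163). With H2O2 and RB it rose by 1.34 ± 0.44 against water (adjusted p = 0.0346). It differed from H2O2 alone at 2 h by -0.14 ± 0.42 (adjusted p = 0.948), with a 95% interval of -1.02 to 0.75 that holds both a fall and a rise. The call at 2 h was lost without water replicate a or c or H2O2 2 h replicate a or c, with 1.17, 1.34, 1.24 and 1.295. The call with H2O2 and RB was lost without water replicate a or c or H2O2 and RB replicate b or c, with 1.02, 1.19, 1.09 and 1.35.

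The rise of KCS1 at 3 h held without any single library, with log2 values of 1.37 to 2.50 in the 15 fits. The authors' deposited table also gives a log2 fold change of 1.87 for KCS1 at 3 h, with an unadjusted p of 7.52e-05 and an adjusted p of 0.409. The Benjamini-Hochberg adjustment of the p-values in the authors' deposited table would give 0.000907, so in that comparison the deposited adjusted value is not that adjustment. For 2 h and for H2O2 and RB against water, the authors' deposited table gives KCS1 1.47 (adjusted p = 0.0314) and 1.35 (adjusted p = 0.0360).

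KCS2, also called DAISY, lengthens chains toward the very-long-chain suberin monomers of the root and overlaps in role with KCS20. Its libraries had 41.0, 59.1 and 25.9 CPM with H2O2 and RB. In the time series KCS2 had 14.7, 19.8 and 19.7 CPM in water, 13.8, 18.4 and 17.4 CPM at 1 h of H2O2, 17.1, 13.7 and 16.2 CPM at 2 h, and 8.73, 9.98 and 14.4 CPM at 3 h. The 3 H2O2 and RB libraries were the highest of all 15, and the 3 h libraries lay below all 3 water libraries.

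KCS2 averaged 42.0 ± 16.6 CPM with H2O2 and RB, against 15.7 ± 1.76 CPM with H2O2 alone at 2 h and 18.1 ± 2.90 CPM in water (SD, n = 3 each). The rise with H2O2 and RB was 1.38 ± 0.32 on the log2 scale against H2O2 alone at the same time (adjusted p = 0.0256) and 1.19 ± 0.31 against water (adjusted p = 0.00841). It was 1.305 ± 0.32 against 1 h (adjusted p = 0.0174) and 1.93 ± 0.32 against 3 h of H2O2 (adjusted p = 0.000522). KCS2 was the 1 gene of 6 called in each of these last comparisons, beside 2.47% of all tested genes called higher and 3.67% lower against 1 h, and 8.28% higher and 8.16% lower against 3 h.

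H2O2 alone gave KCS2 no call at any time. Its log2 difference from water was -0.11 ± 0.33 at 1 h (adjusted p = 0.905), -0.19 ± 0.33 at 2 h (adjusted p = 0.773) and -0.74 ± 0.32 at 3 h (adjusted p = 0.0930). With upper-quartile scaling, which moved the median of all genes by -0.16 at 3 h, the last value became -0.91 and passed the test (adjusted p = 0.0400). In the order of its levels, 3 h, 2 h and 1 h of H2O2, water, and H2O2 with RB, only the last step was called.

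The difference of KCS2 between H2O2 with RB and H2O2 alone lost its call without H2O2 and RB replicate a (1.39) or b (1.04) and without H2O2 2 h replicate a (1.43), b (1.29) or c (1.39). Against water it lost its call without water replicate a (1.00) or without H2O2 and RB replicate b (0.81, adjusted p = 0.101). Against 1 h it lost its call without H2O2 1 h replicate a (1.20) or H2O2 and RB replicate b (0.98). Against 3 h it held without any single library. The authors' deposited table gives KCS2 a log2 fold change of 1.39 against H2O2 alone (adjusted p = 0.0140) and 1.18 against water (adjusted p = 0.00829).

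KCS1 was called against water under H2O2 with and without RB, and KCS2 was called where RB was added. Over the 15 libraries their log2 CPM had a correlation of r = 0.08, the lowest of the 15 pairs of tested genes, and within groups the residual correlation was 0.59. Both values share the depth of the libraries. Whether the 2 genes differ in response was not tested.

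**Figure D2:**
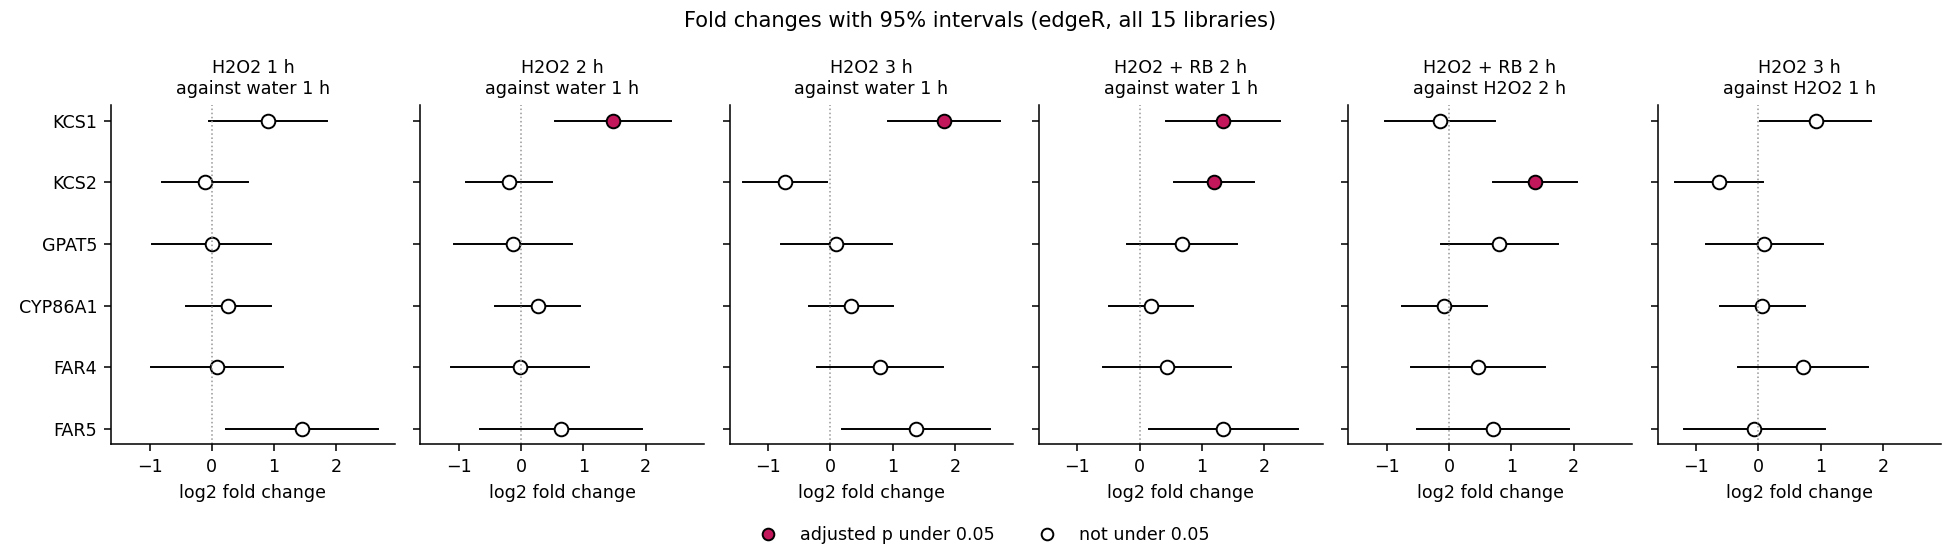
Log2 fold change (points) with its 95% interval (lines) of the 6 tested genes, 1 panel for each of 6 comparisons, filled where the adjusted p was under 0.05. The 4 filled points of KCS1 and KCS2 against water lie between 1.19 and 1.82, and KCS2 alone is filled against H2O2 at 2 h.

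KCS20, the close paralog of KCS2, was too low to test. It had 4, 11 and 9 counts with H2O2 and RB. The time series had 7, 11 and 2 counts in water, 3, 9 and 3 counts after 1 h of H2O2, 8, 1 and 1 after 2 h, and 6, 0 and 2 after 3 h, or 0 to 6.37 CPM over all libraries. When all 14532 listed genes were fitted with no filter, no comparison of KCS20 was called and its lowest adjusted p was 0.148, for H2O2 and RB against 3 h of H2O2 (log2 1.69). Reads of KCS2 and KCS20 that match both genes could have been split or dropped in counting, so both values are uncertain in that respect. The annotation also has AT1G04210 and a long non-coding RNA, AT1G04247, overlapping KCS2. Their counts were 0 to 28 and 0 to 7 per library, against 11 to 165 for KCS2.

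GPAT5 makes the acyltransferase that forms the glycerol esters of suberin, and its loss is known to leave roots with less suberin. It had 13.7, 12.2 and 10.7 CPM with H2O2 and RB. Water and H2O2 alone gave GPAT5 levels of 6.37, 10.9 and 3.28 CPM in water, 6.45, 9.88 and 3.16 CPM at 1 h of H2O2, 8.75, 4.90 and 5.98 CPM at 2 h, and 7.35, 5.59 and 11.4 CPM at 3 h. All 3 libraries with H2O2 and RB lay above all 3 with H2O2 alone at 2 h, but overlapped the water libraries. The log2 difference with H2O2 and RB was 0.81 ± 0.45 against H2O2 alone (adjusted p = 0.503, interval -0.14 to 1.75) and 0.68 ± 0.42 against water (adjusted p = 0.283). H2O2 alone moved GPAT5 by 0.00 ± 0.46 at 1 h, -0.13 ± 0.45 at 2 h and 0.10 ± 0.43 at 3 h, none of which passed.

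CYP86A1, or HORST, is the omega-hydroxylase of root suberin. It had 83.5, 127 and 65.5 CPM with H2O2 and RB. From water to 3 h of H2O2 it had 79.7, 88.1 and 72.2 CPM in water, 97.7, 98.6 and 91.6 CPM at 1 h of H2O2, 90.5, 106 and 94.0 CPM at 2 h, and 52.4, 82.3 and 170 CPM at 3 h. The 1 h and 2 h libraries lay narrowly above all water libraries, and the 3 h libraries lay on both sides of them.

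The log2 differences of CYP86A1 from water were 0.26 ± 0.33 at 1 h, 0.27 ± 0.32 at 2 h, 0.33 ± 0.32 at 3 h and 0.19 ± 0.32 with H2O2 and RB, with adjusted p of 0.467 to 0.745. The upper ends of these 95% intervals were 0.94, 0.95, 1.00 and 0.91, so a rise of CYP86A1 beyond about 1 log2 unit lies outside them. At 3 h the value became -0.26 without H2O2 3 h replicate c.

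FAR4 and FAR5 make the reductases that give suberin its primary alcohols of different chain lengths, and they are adjacent on chromosome 3 with no other protein-coding gene between them. As paralogs they could share reads. FAR4 had 10.9, 16.8 and 10.1 CPM with H2O2 and RB. Over time it had 9.16, 8.60 and 9.85 CPM in water, 2.77, 14.6 and 7.89 CPM at 1 h of H2O2, 12.2, 3.92 and 9.40 CPM at 2 h, and 8.73, 12.4 and 27.8 CPM at 3 h. Its libraries with H2O2 and RB lay above all water libraries, by 0.44 ± 0.49 on the log2 scale (adjusted p = 0.592), and at 3 h the difference was 0.80 ± 0.48 (adjusted p = 0.224).

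FAR5 had 6.84, 11 and 10.7 CPM with H2O2 and RB. Over time FAR5 had 2.79, 5.12 and 2.46 CPM in water, 11.1, 13.4 and 3.16 CPM at 1 h of H2O2, 7.22, 1.96 and 7.69 CPM at 2 h, and 5.05, 5.59 and 20.3 CPM at 3 h. Its values with H2O2 and RB were all above the water values, and those at 1 h, 2 h and 3 h overlapped them. FAR5 had the largest log2 differences among the genes that did not pass, 1.44 ± 0.58 at 1 h (adjusted p = 0.140), 1.38 ± 0.57 at 3 h (adjusted p = 0.0745) and 1.34 ± 0.57 with H2O2 and RB (adjusted p = 0.105). Their 95% intervals, 0.22 to 2.66, 0.19 to 2.57 and 0.15 to 2.54, lay above 0 before adjustment over all genes. The 3 h value passed without H2O2 3 h replicate a (1.72) and was 0.48 without replicate c.

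Replicate c of H2O2 3 h had the highest level of KCS1, CYP86A1, FAR4 and FAR5 in all 15 libraries, and its levels were 41.2, 170, 27.8 and 20.3 CPM. In the same library KCS2 and GPAT5, at 14.4 and 11.4 CPM, were the highest of the 3 h group. The summed count of the listed genes was 0.0224% of this library, against 0.0111% and 0.0119% in replicates a and b. Within groups the tested genes moved together, with correlations of residual log2 CPM of 0.26 to 0.88 over the 15 pairs of genes and 15 libraries, which share depth and scaling.

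Outside the set, 5 genes were closest to the mean profile of the 6 tested genes over the 15 libraries, named by Pearson's r of log2 CPM. They were AT2G38380 (r = 0.90) and AT5G14130 (r = 0.89), both peroxidase superfamily proteins by RefSeq, AT4G35160 (r = 0.88, O-methyltransferase family), AT3G51450 (r = 0.87, calcium-dependent phosphotriesterase superfamily) and AT4G25900 (r = 0.87, galactose mutarotase-like). Closest to CYP86A1 alone were AT3G25640 (r = 0.86, a MIZU-KUSSEI-like protein), AT4G28940 (r = 0.82, phosphorylase superfamily) and PDLP4 (AT3G04370, r = 0.82), a plasmodesmata-located protein. Next came AT1G04360 (r = 0.81, a RING/U-box protein) and AT4G24140 (r = 0.80, an alpha/beta-hydrolase). These are descriptions over libraries that share groups and depth.

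Other genes of the pathway were taken from lists of fixed content. Among the other KCS genes, 3 of 18 were tested and 1 rose with H2O2 and RB against water, with no other call against water or H2O2 at 2 h. This was KCS6, also called CER6, the condensing enzyme of cuticular wax. KCS6 had 19.2, 17.4 and 15.9 CPM with H2O2 and RB. From water to 3 h KCS6 had 1.99, 3.80 and 0 CPM in water, 2.77, 7.90 and 6.31 CPM at 1 h of H2O2, 5.70, 3.92 and 0.854 CPM at 2 h, and 2.99, 3.99 and 0.496 CPM at 3 h. The 3 H2O2 and RB libraries were the highest of all, a difference of 2.79 ± 0.60 from water (adjusted p = 0.00197). From H2O2 alone at 2 h the difference of 2.16 did not pass (adjusted p = 0.0751). It passed with DESeq2 (adjusted p = 0.0261), the fit of 2 groups and the replicate block. Of the 15 fits that left out 1 library, only 2 called it.

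Of the other CYP86, GPAT, FAR and acyltransferase genes 7 of 14 were tested. GPAT4, an acyltransferase of cutin, had 84.8, 138 and 86.6 CPM with H2O2 and RB, against 44.1, 27.5 and 29.0 CPM with H2O2 alone at 2 h and 27.5, 50.9 and 27.1 CPM in water. No library of the other groups reached those with H2O2 and RB. GPAT4 rose by 1.59 ± 0.30 against H2O2 alone (adjusted p = 0.00718, lost without H2O2 2 h replicate c) and by 1.51 ± 0.30 against water (adjusted p = 0.000946), the second without loss in any fit that left out 1 library. At 3 h against water 2 of the 7 rose, GPAT7, a relative of GPAT5 (1.52, adjusted p = 0.0319), and FACT, which esterifies caffeate to suberin alcohols (1.26, adjusted p = 0.0373), and FACT also rose at 3 h against 1 h (1.40, adjusted p = 0.0469).

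Replicate c of the 3 h group had the highest level of both genes. FACT had 47.8, 73.5 and 202 CPM at 3 h of H2O2, against 43.4, 53.4 and 34.5 CPM in water, and GPAT7 had 3.90, 4.39 and 10.4 CPM, against 1.20, 2.48 and 2.46 CPM. All 3 h libraries of GPAT7 lay above its water libraries. Without H2O2 3 h replicate c the differences from water were 0.44 for FACT and 0.98 for GPAT7, and from 1 h 0.58 for FACT, and none passed. The call of GPAT7 was also lost without water replicate a (1.25) or b (1.83). The call of FACT against water was also lost without water replicate a (1.24) or c (1.15), and against 1 h without H2O2 1 h replicate a (1.24) or c (1.35) or H2O2 and RB replicate a (1.42).

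Of the other elongase subunits and acyl-CoA synthetases 5 of 7 were tested, and 1 fell at 3 h against water and against 1 h. This was PAS2, the dehydratase of the elongase, with 0.918, 1.20 and 0.496 CPM at 3 h of H2O2, against 6.45, 4.94 and 9.47 CPM at 1 h and 4.78, 4.30 and 3.28 CPM in water. All 3 h libraries, with 4, 3 and 1 counts, lay below all libraries of the other groups. PAS2 fell by 2.18 against water (adjusted p = 0.0153, which became 0.0556 without H2O2 3 h replicate c) and by 2.76 against 1 h (adjusted p = 0.00928).

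Of the genes of export and assembly, 3 of 9 were tested, and none was called by edgeR in these 6 comparisons. The transporter ABCG20 of this list had the largest difference, 1.48 with H2O2 and RB against H2O2 alone at 2 h, which did not pass.

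Of the regulators 2 of 9 were tested and both fell at 3 h. MYB92, an activator of fatty acid and suberin genes, fell by 2.63 (adjusted p = 0.00188). It had 1.61, 1.20 and 0 CPM at 3 h of H2O2, against 7.57, 6.45 and 6.57 CPM in water. These levels rest on 0 to 7 counts per library at 3 h and 8 to 39 in water. MYB70 fell by 1.07 at 2 h (adjusted p = 0.00258), 1.22 at 3 h (adjusted p = 0.000333) and 1.19 with H2O2 and RB (adjusted p = 0.000509). These falls were called in each fit that left out 1 library.

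All 12 genes of de novo fatty acid synthesis in the plastid were tested. At 3 h against water 1 rose and 2 fell. BCCP2, a carrier subunit of acetyl-CoA carboxylase, fell by 2.70 (adjusted p = 0.00485). Its levels rest on only 2 to 3 counts per library at 3 h and 5 to 63 in water. WRI1, which activates genes of fatty acid synthesis, fell by 1.20 (adjusted p = 0.0135). MOD1, the enoyl reductase, rose by 0.73 (adjusted p = 0.0252) and with H2O2 and RB by 0.91 (adjusted p = 0.00889). At 3 h against 1 h BCCP1 fell by 0.92 (adjusted p = 0.0432) and BCCP2 by 2.28 (adjusted p = 0.0436). BCCP2 lost its call against water without water replicate b (-1.84), and WRI1 without water replicate a (-1.06) or b (-1.10) or H2O2 3 h replicate c (-0.99). MOD1 lost its call at 3 h without any 1 of the water libraries (0.71 to 0.77) or without H2O2 3 h replicate a (0.68) or b (0.66), and its call with H2O2 and RB without replicate b (0.80) or c (0.75) of that group. Of the 15 fits that left out 1 library, the falls against 1 h were called in 5 for BCCP1 and 6 for BCCP2.

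**Figure D3:**
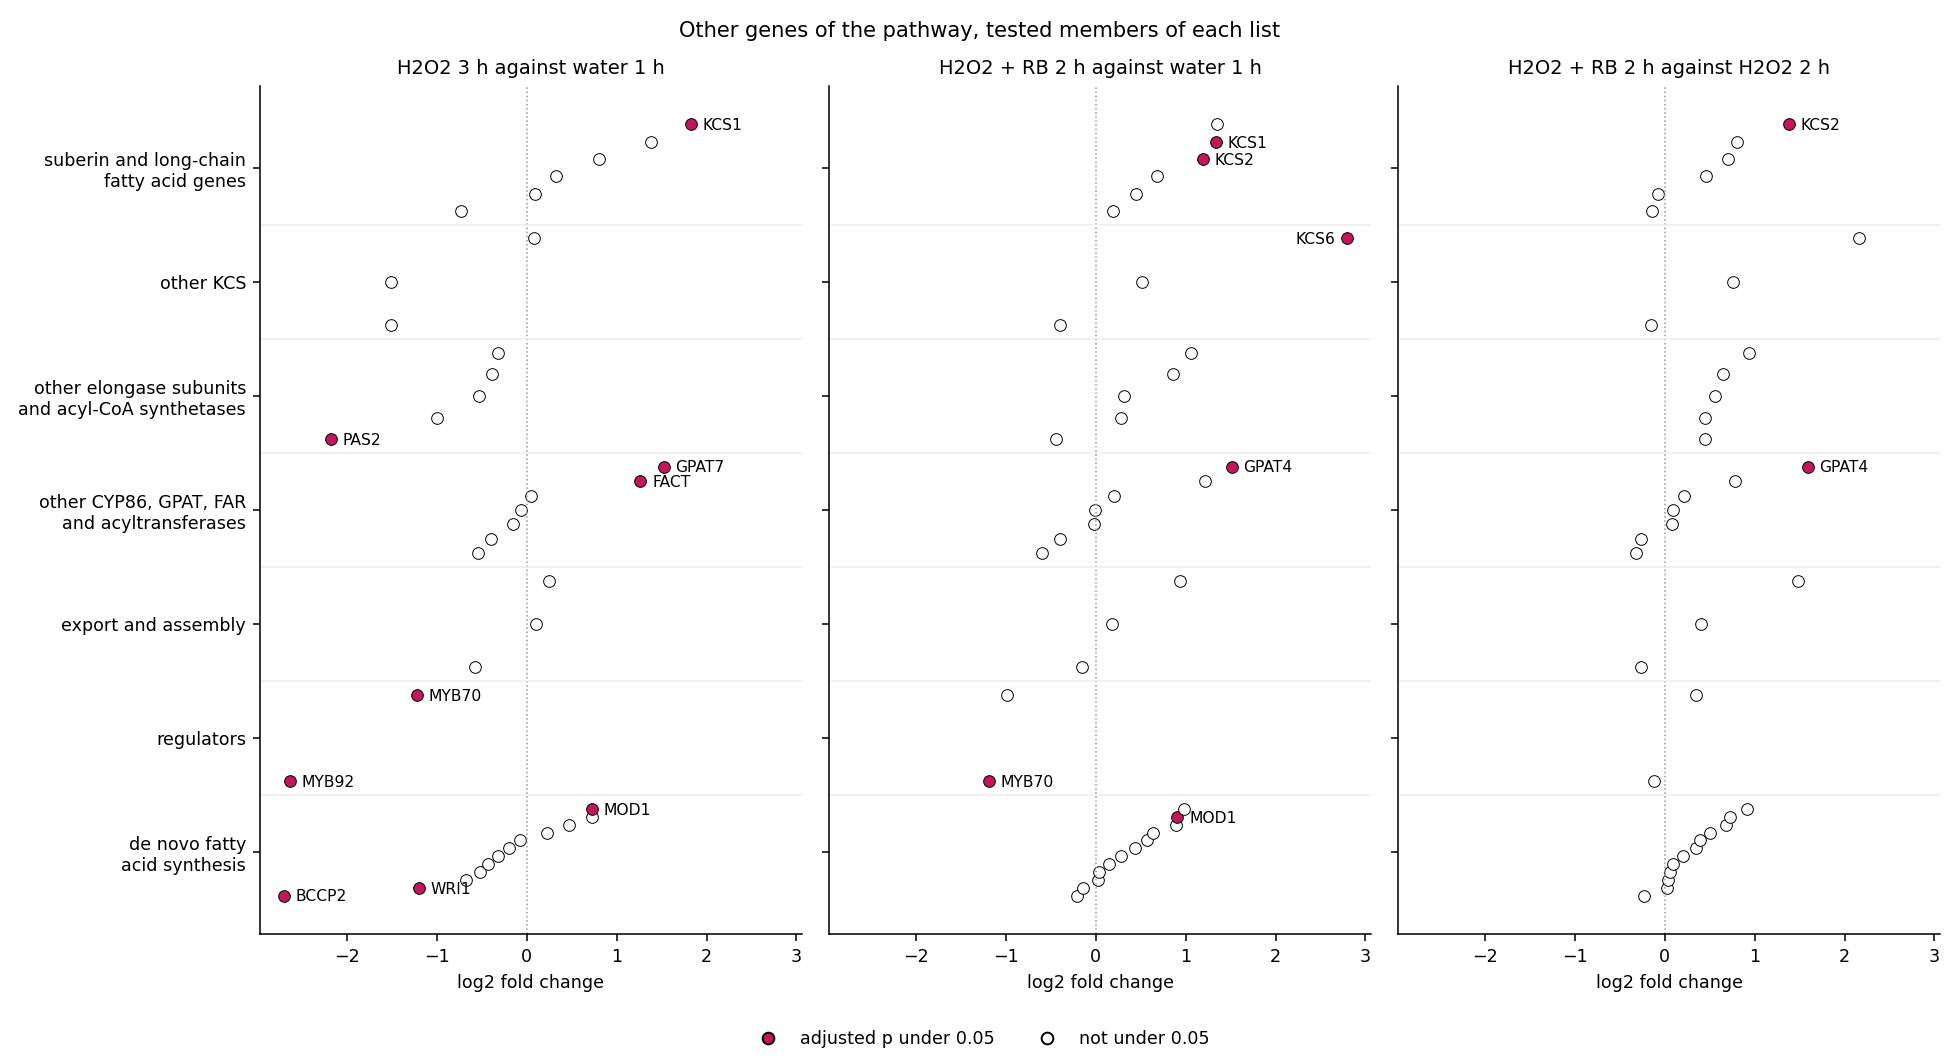
Log2 fold change of every tested gene of the 7 lists (rows) in 3 comparisons (panels), filled and named where the adjusted p was under 0.05. With H2O2 and RB against water KCS6 (2.79), GPAT4 (1.51), MOD1 (0.91) and MYB70 (-1.19) are filled beside KCS1 and KCS2, and the points furthest to the left are BCCP2 and MYB92 at 3 h.

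Markers of the shoot were not at 0 in these roots. The summed level of 6 shoot markers was 157, 211 and 493 CPM with H2O2 and RB, against 201, 274 and 224 CPM with H2O2 alone at 2 h and 214, 175 and 239 CPM in water. Of 4 tested, RBCS3B and LHCB1.3 rose with H2O2 and RB against water, by 2.57 (adjusted p = 0.0188) and 1.76 (adjusted p = 0.00195). RBCS3B had 2.74 to 45.7 CPM with H2O2 and RB, which overlapped its 1.99 to 6.57 CPM in water. LHCB1.3 had 34.9 to 84.9 CPM with H2O2 and RB, above its 10.4 to 24.6 CPM in water. LHCB1.3 also rose at 3 h of H2O2 alone, by 1.11 (adjusted p = 0.0320). With H2O2 and RB against H2O2 alone at 2 h edgeR called 0 of the 4, and 2 had an unadjusted p under 0.05. KCS2, KCS6 and GPAT4 are also active in shoots, where KCS6 and GPAT4 serve the cuticle. In replicate c, the H2O2 and RB library with the highest shoot sum, KCS2, KCS6 and GPAT4 had 25.9, 15.9 and 86.6 CPM. In replicate a, whose shoot sum was the lowest of all 15 libraries, they had 41.0, 19.2 and 84.8 CPM. Without replicate c the differences from water were 1.40 for KCS2, 2.77 for KCS6 and 1.55 for GPAT4, and all 3 were called. Leaving out replicate c does not take the shoot markers out, since LHCB1.3 was at 34.9 CPM or more in all libraries with H2O2 and RB. The part of shoot RNA in these rises was not tested.

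**Figure D4:**
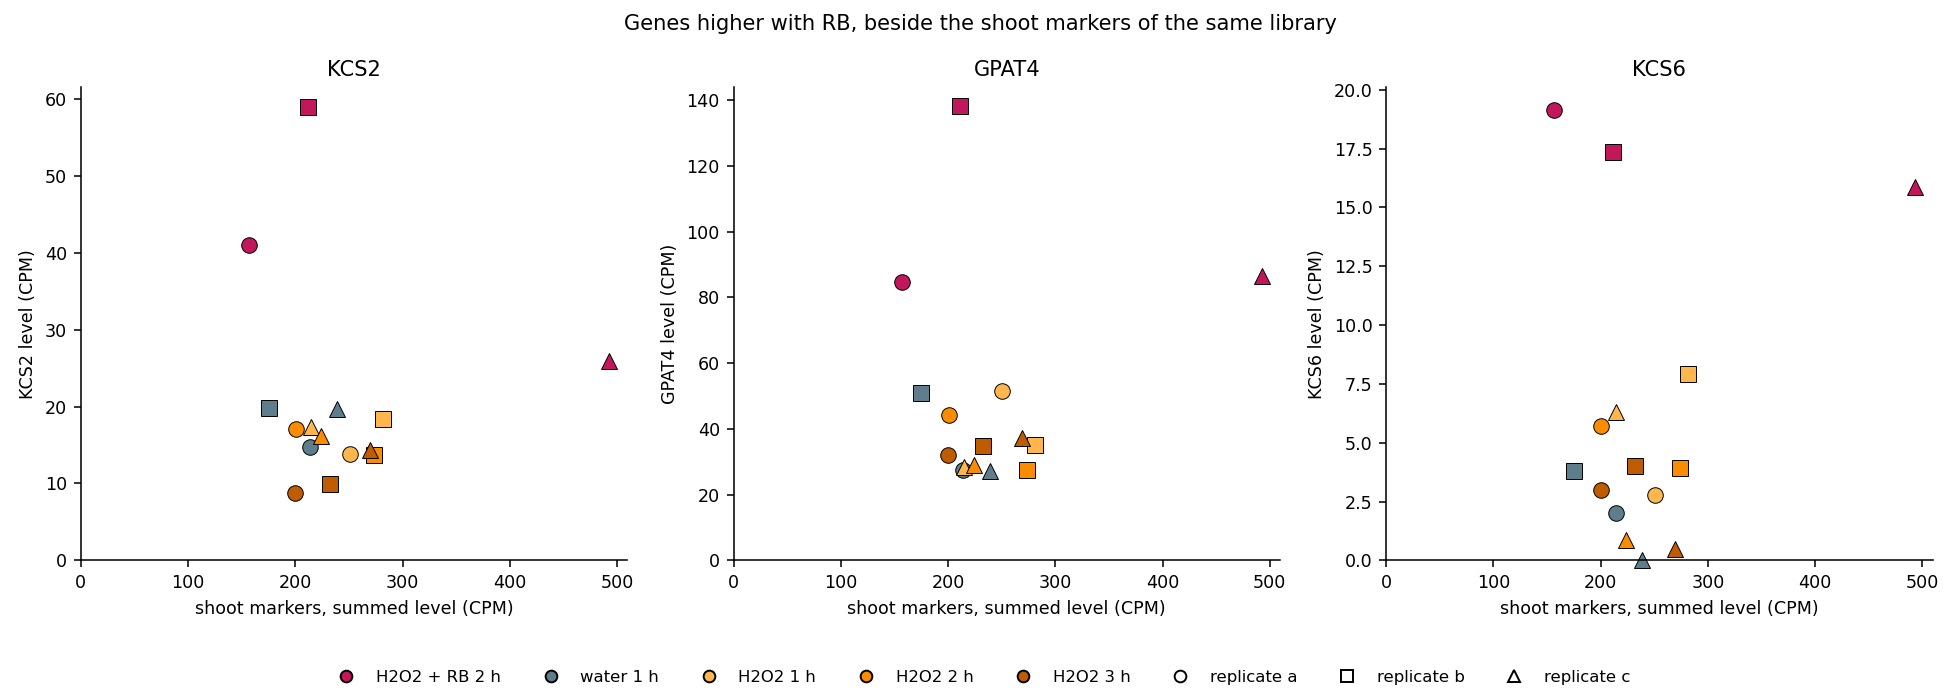
Level of KCS2, GPAT4 and KCS6 in CPM (vertical axes) against the summed level of 6 shoot markers in the same library in CPM (horizontal axes), 15 libraries, coloured by group. The 3 libraries with H2O2 and RB are highest in each panel, at shoot sums of 157, 211 and 493 CPM.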

How the data were processed

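The authors deposited 1 table with raw counts per gene, made from MARS-seq libraries, a method that tags the 3′ ends of transcripts and adds molecular identifiers. Per the submitters' processing notes the tools were bcl2fastq, cutadapt, STAR 2.4.2a, HTSeq and DESeq2, with no role stated. The sources used here do not give the genome build, the treatment of molecular identifiers and strand, or the handling of reads shared by paralogs. The authors' log2 fold changes and p-values of 10 comparisons were also deposited. These fold changes are of the first-named group over the second-named group and were turned to the direction used here. Another 30 columns of per-sample values were not used.

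The 15 libraries were fitted together with edgeR 4.0.16 (R 4.3.3), TMM factors and a filter at 10 counts, which kept 9986 of 14532 genes. The lowest of the genes' highest counts was 6, so the table lists genes above a minimum. Contrasts between groups used the robust quasi-likelihood test with Benjamini-Hochberg adjustment, called at 0.05, and 95% intervals used the moderated degrees of freedom (19.1). The pipeline was tested on simulated data. Of 14532 locus codes, 14497 matched the RefSeq table of TAIR10.1, which was used for names, neighbours and overlaps of genes. Its start and end positions gave the order and the overlaps, and no coordinates are printed.

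The genes and lists were chosen with earlier results of these data known. Named genes of other lists are at most 4 for each list with the largest change among those called. Alternatives were RLE and upper-quartile factors, DESeq2 1.42.0, no filter, fits of 2 groups, a replicate block, a depth covariate, thinning to equal depth and leaving out each library. p-values measure the spread between biological replicates, as the labels call them. Values of single endodermis markers are not reported here.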

Additional observations from a re-analysis of the deposited data

Results flagged for a closer look

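KCS2 differed between H2O2 with RB and H2O2 alone at 2 h by 1.38 on the log2 scale (edgeR, adjusted p = 0.0256), a difference between the 2 treatments that was tested directly. It was higher in 3 of 3 libraries with RB, at 41.0, 59.1 and 25.9 CPM, against 17.1, 13.7 and 16.2 CPM with H2O2 alone. Of the 6 fits that left out a library of the 2 groups compared, 5 lost this call, as did thinning to equal depth.

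In 3 of the 10 comparisons of the authors' deposited table, 3 h against water, 2 h against 1 h and 3 h against 1 h of H2O2, the adjusted p-values are not the Benjamini-Hochberg adjustment of its unadjusted ones. At 3 h against water 363 genes of the authors' deposited table have an adjusted p under 0.05, and the Benjamini-Hochberg adjustment of its p-values would give 3125, beside 3048 called by edgeR here.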

How the results depend on the processing

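Of 1358 values of the tested genes under 23 alternatives, 1254 kept their direction and their side of the threshold, 24 lost a call, 4 gained one, 76 changed sign with no call on either side and none reversed a call. Thinning all libraries to the shallowest left no call among the 6 genes at 2 h and 3 h against water and with H2O2 and RB against water or H2O2 alone (0 in each), and left 336 genes of 958 at 1 h, 496 of 1392 at 2 h, 1001 of 3048 at 3 h and 821 of 2120 with H2O2 and RB, all against water. It left 49 of 243 for H2O2 and RB against H2O2 alone and 275 of 1383 for 3 h against 1 h. Thinning removes counts by construction, and the log2 values moved as well. KCS1 against water was 1.41 at 2 h, 1.03 at 3 h and 1.02 with H2O2 and RB, and KCS2 with H2O2 and RB was 1.15 against water, 2.403 against H2O2 alone, 1.95 against 1 h and 1.499 against 3 h. Among the other pathway genes thinning ended the calls with H2O2 and RB of GPAT4 (0.91 against water, adjusted p = 0.371, and 1.87 against H2O2 alone, adjusted p = 0.212), and against water of KCS6 (1.93, adjusted p = 0.3804), MOD1 (1.06) and MYB70 (-1.17), that of MYB70 at 2 h (-1.20), those at 3 h against water of FACT (1.51), MOD1 (0.78) and WRI1 (-1.43), and those at 3 h against 1 h of FACT (1.98) and BCCP1 (-1.22). Upper-quartile factors ended the calls at 3 h against water of FACT (1.06, adjusted p = 0.0733), GPAT7 (1.34, adjusted p = 0.0517) and MOD1 (0.57, adjusted p = 0.0805). They also ended that of FACT at 3 h against 1 h (1.24). With no filter the calls at 3 h against 1 h of FACT (1.52, adjusted p = 0.0545), BCCP1 (-0.77, adjusted p = 0.0960) and BCCP2 (-2.13, adjusted p = 0.0516) were lost. In the same comparison the fit of 2 groups ended those of FACT (1.36, adjusted p = 0.0854) and BCCP1 (-0.95, adjusted p = 0.0681). The depth covariate ended that of FACT (1.29, adjusted p = 0.0759). GPAT7, PAS2, MYB92 and BCCP2 gave no value after thinning. At 3 h, 2 of the 6 were called with upper-quartile factors (KCS1 higher, KCS2 lower) and 2 with the depth covariate (KCS1 and FAR5, both higher), and the cause was not tested. Upper-quartile factors gave 41.0% higher calls at 3 h against water, where TMM gave 53.0%, and 38.1% at 3 h against 1 h, where TMM gave 49.9%. Fitting only the groups compared called 848 genes for 3 h against 1 h. FAR5 with H2O2 and RB against water was called in the fit of 2 groups.

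Leaving out each library in turn called 0 to 1 of the 6 genes at 2 h, 1 to 2 at 3 h and 0 to 2 with H2O2 and RB against water, and 0 to 1 with H2O2 and RB against H2O2 alone. Over all genes it called 577 to 1072 at 1 h, 893 to 1512 at 2 h, 92 to 288 with H2O2 and RB against H2O2 alone and 749 to 1492 for 3 h against 1 h. In fits without 1 library 2 are left in its group, and the spread is estimated over all the remaining libraries.

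The replicate letters do not pair the libraries by the labels. Of 30 pairs with the same letter, 8 had a residual correlation over 0.1 (range -0.44 to 0.64), and 7 of 15 libraries were closest to their own letter. With the replicate block the calls of the 6 genes were 1 at 2 h, 1 at 3 h and 2 with H2O2 and RB against water, and 1 against H2O2 alone. Of the other pathway genes, KCS6 gained a call under the block for H2O2 and RB against H2O2 alone (2.33), while GPAT7 (1.43) and FACT (1.18) at 3 h against water, and FACT (1.33) and BCCP2 (-2.24) at 3 h against 1 h, lost theirs.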

Other observations

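The groups with H2O2 and RB and with 3 h of H2O2 differ in both time and RB. Between them further genes of the fatty acid path were higher with RB by edgeR. Of all tested genes 8.28% were called higher and 8.16% lower in this comparison. PAS2, the elongase dehydratase, was 3.24 higher (adjusted p = 0.00180) and BCCP2 2.84 higher (adjusted p = 0.00800), each in 3 of 3 libraries. The 3 h libraries had only 1 to 4 counts of PAS2 and 2 to 3 of BCCP2. The transporter ABCG20, which exports suberin precursors, was 1.51 higher (adjusted p = 0.0109), and LACS2, an acyl-CoA synthetase of cutin, 1.18 higher (adjusted p = 0.0371). KAS1 of the plastid was 0.88 higher (adjusted p = 0.0293) and WRI1 1.24 higher (adjusted p = 0.0214). WRI1 was called in 11 of the 15 fits that left out 1 library, and lost its call with no filter. FACT was 1.27 lower, which did not pass (adjusted p = 0.0565). Against H2O2 alone at 2 h, the same time as with RB, edgeR called none of these genes. The values were 0.45 for PAS2, 0.91 for BCCP2 and 0.72 for WRI1. From 2 h to 3 h of H2O2 alone PAS2 fell by 2.80 (adjusted p = 0.0233).

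Markers of other root tissues moved as well. SMB of the root cap fell against water by 1.36 at 2 h (adjusted p = 0.0245), 1.89 at 3 h (adjusted p = 0.000961) and 1.38 with H2O2 and RB (adjusted p = 0.0110). SUC2 of the phloem fell by 0.99 with H2O2 and RB against water (adjusted p = 0.0281). It was the 1 called of 3 stele markers tested, whose log2 values ran from -1.38 to 0.65. APL, also of the phloem, averaged 22.8 CPM with H2O2 and RB against 14.3 CPM in water, so the stele markers moved both ways. Neither of the 2 cortex markers was called against water by edgeR.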
